A study of Mus musculus with 33 samples.

Results

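*Prkcd*, *Tcf7l2*, *Rora*, *Calb2*, *Lef1*, *Tnnt1*, *Ramp3* and *Rgs16* are 8 genes that mark neurons of the thalamus, the structure that lies directly above the hypothalamus. They were chosen by symbol, 8 of 41565 named genes in the deposited expression table, and each matched 1 entry. Their values were followed through 33 bulk RNA-seq libraries of 2 dissected hypothalamic regions, the posterior hypothalamus (PH) and the preoptic area (POA), to ask how evenly thalamic tissue entered the dissections and how this spread compared with differences after ovariectomy (OVX). The libraries came from adult WT female C57BL/6 mice. The PH had 4 libraries from intact mice, 6 at 14 days and 6 at 4 months after OVX, and the POA had 5, 6 and 6. Intact mice were euthanized in diestrus before any surgery, so no intact group of the age reached at 4 months was included, although the titles of these libraries say sham. Each group was split over 2 batches, with 2 or 3 libraries of a group in each. No label says which mouse a library came from or whether PH and POA libraries share a mouse, so the tests measure the spread between these libraries.

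The thalamus relays sensory and motor signals to the cortex, and most of its nuclei consist of excitatory relay neurons. These neurons are specified in the embryo under Wnt signaling and keep expressing transcription factors of that pathway in the adult, where the hypothalamus has far less of them. Because the thalamus borders the hypothalamus, a dissection of hypothalamic regions can carry thalamic tissue along. The habenula, a small structure at the dorsal end of the thalamus, is farther from both regions. In bulk RNA, more thalamic cells in a sample and more RNA per cell cannot be told apart.

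Tcf7l2 and Lef1 are DNA-binding partners of β-catenin in the Wnt pathway, and *Tcf7l2* maintains the identity of thalamic neurons. On GRCm39, *Tcf7l2* lies on chromosome 19 (55730188 to 55922091, plus strand) and *Lef1* on chromosome 3 (130903919 to 131018005, plus strand). *Rora*, on chromosome 9 (68561068 to 69295528, plus strand), encodes a retinoid-related orphan nuclear receptor. The signaling genes are *Prkcd*, protein kinase C delta, on chromosome 14 (30317307 to 30349238, minus strand), *Ramp3*, a partner protein of calcitonin-family receptors, on chromosome 11 (6608511 to 6627475, plus strand), and *Rgs16*, a GTPase activator that shortens G protein signals, on chromosome 1 (153616091 to 153621228, plus strand). *Calb2*, on chromosome 8 (110864128 to 110894881, minus strand), encodes the calcium-binding protein calretinin, which hypothalamic neurons also express. *Tnnt1*, on chromosome 7 (4507567 to 4519381, minus strand), encodes the troponin T of slow muscle and is a known transcript of thalamic neurons. All 8 are protein-coding, and all passed the filter on low values in both regions.

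RefSeq promoter windows of 300 bases, 250 before and 50 from the annotated start onward, were matched for 7 of the 8 genes, 12 windows in all. For the 4 genes that varied most closely together across libraries 1 window each is shown, the most upstream of 2 for *Tcf7l2* and of 4 for *Lef1*, on GRCm38.p6, each 5′ to 3′ on the strand of its gene. They are chr19:55741560-55741859 (plus), chr9:68653536-68653835 (plus), chr3:131110047-131110346 (plus) and chr7:4515926-4516225 (minus), and the capital letter at base 251 marks the annotated start, while longer capital runs mark TATAAA.

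Tcf7l2: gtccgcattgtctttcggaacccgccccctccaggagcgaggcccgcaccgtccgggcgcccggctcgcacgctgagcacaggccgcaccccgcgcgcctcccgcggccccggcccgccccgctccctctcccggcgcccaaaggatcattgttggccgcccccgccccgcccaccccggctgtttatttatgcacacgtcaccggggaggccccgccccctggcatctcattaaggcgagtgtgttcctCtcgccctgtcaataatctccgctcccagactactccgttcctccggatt
Rora: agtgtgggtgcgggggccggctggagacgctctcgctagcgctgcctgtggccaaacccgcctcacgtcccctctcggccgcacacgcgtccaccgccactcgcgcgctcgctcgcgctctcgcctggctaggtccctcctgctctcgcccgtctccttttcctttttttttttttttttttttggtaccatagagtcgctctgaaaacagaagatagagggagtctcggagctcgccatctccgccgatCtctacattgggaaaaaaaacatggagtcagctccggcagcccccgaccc
Lef1: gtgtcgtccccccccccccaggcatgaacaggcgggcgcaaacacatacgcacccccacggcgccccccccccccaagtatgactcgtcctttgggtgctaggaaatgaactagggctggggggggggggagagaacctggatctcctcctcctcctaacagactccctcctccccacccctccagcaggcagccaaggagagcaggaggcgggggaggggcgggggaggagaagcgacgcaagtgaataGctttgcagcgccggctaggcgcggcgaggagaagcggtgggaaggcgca
Tnnt1: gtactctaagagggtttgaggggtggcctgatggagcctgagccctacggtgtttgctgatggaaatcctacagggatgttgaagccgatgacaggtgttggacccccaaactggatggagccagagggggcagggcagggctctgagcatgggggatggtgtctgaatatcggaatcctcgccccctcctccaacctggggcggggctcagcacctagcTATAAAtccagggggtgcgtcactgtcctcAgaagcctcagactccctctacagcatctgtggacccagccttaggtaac

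The LEF/TCF core CTTTGAT and the RORA half-site AGGTCA were in none of the 12 windows on either strand. Of all 32851 promoter windows, 3.73% held the first and 16.3% the second. TATAAA, which 13.6% of all windows held, was in 4 of the 12 windows, 1 each of *Tnnt1*, *Prkcd*, *Lef1* and *Tcf7l2*, and those of *Lef1* and *Tcf7l2* are not the windows shown. That of *Tnnt1* began 30 bases before the start. No match says only that these letters are not in these windows.

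The deposited values are normalized signals on a linear scale, not counts, so the read depth of a library is unknown. Their sum per library was 0.887 to 1.085 times the median of all libraries, except for 1 library at 1.45. Genes without measurable expression lay at 22.1, far under every value of the 8 genes. A total of 108 such entries moved along 1 line through the libraries, termed the floor component here, and 83.5% of its variation lay between the regions. The members had almost no correlation with it over all 33 libraries (r from -0.06 to 0.02) although they had within regions, so no difference between PH and POA levels is reported. A total of 3 libraries stood apart. The PH 14-day replicate 5 had the highest sum of values and was far from the other PH libraries on the first surrogate variable (SV1). SV1 estimates variation beyond the groups and served as the covariate. It was 0.785 in this library against -0.311 to 0.194 in the others. The PH 4-month replicate 3 and the POA 14-day replicate 6 had the highest level of 6 of the 8 genes in their region. The POA 14-day replicate 6 also had the lowest sum of values of all libraries, 0.887 times the median. In the POA, SV1 separated the recorded batches, from 0.186 to 0.352 in batch 1 and from -0.322 to -0.125 in batch 2.

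*Tcf7l2* varied about 5-fold between PH libraries and 9-fold between POA libraries. In the PH, its deposited value was 3258, 5042, 5100 and 6449 in the 4 intact libraries. It ran from 2712 over a median of 5387 to 9329 at 14 days and from 2820 over 4098 to 13184 at 4 months. The highest values, in the 4-month replicate 3 and the 14-day replicate 5, were outside the intact range, and all 3 groups overlapped. In the POA, the 5 intact libraries had 1424, 2441, 2476, 2787 and 8448. Values ran from 2183 over 5254 to 13174 at 14 days and from 3403 over 4508 to 6998 at 4 months. The intact replicate 2 lay among the highest POA libraries, while the other 4 intact libraries lay below all 4-month libraries.

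*Tnnt1* had the widest range, 10.5-fold in the POA. Its 5 intact POA libraries had 145, 174, 254, 335 and 599. At 14 days it ran from 321 over a median of 619 to 1513, and at 4 months from 409 over 608 to 744. Again 4 of the 5 intact libraries were below every 4-month library and the intact replicate 2 was not. In the PH, *Tnnt1* was 399, 518, 539 and 641 in intact libraries, 343 to 882 at 14 days and 298 to 1314 at 4 months. The PH groups overlapped, and the range over all PH libraries was 4.40-fold.

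*Lef1* and *Rora* followed with the same libraries on top. *Lef1* was 551, 801, 894 and 909 in the intact PH, 565 to 1301 at 14 days and 511 to 2085 at 4 months. In the intact POA it was 362, 377, 610, 638 and 901, with 468 to 1331 at 14 days and 494 to 1109 at 4 months. *Rora* was 10191, 10688, 13522 and 14321 in the intact PH, 7484 to 17292 at 14 days and 6584 to 23360 at 4 months. For both genes the PH 4-month replicate 3 was highest and the 4-month replicate 5 lowest of the region. In the intact POA, *Rora* was 6379, 6763, 7932, 8992 and 12666, with 6534 to 15482 at 14 days and 6722 to 13551 at 4 months. No group of either gene was apart from another.

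Of the signaling genes, *Prkcd* varied 3.46-fold in the PH and 4.58-fold in the POA. It was 6311, 9204, 10057 and 11787 in the intact PH, 5478 to 10194 at 14 days and 3621 to 12514 at 4 months. In the intact POA it was 4822, 7026, 8781, 10240 and 11207, with 2446 to 9885 at 14 days and 4673 to 10125 at 4 months. The lowest POA value was in the 14-day replicate 5, in which *Tcf7l2* and *Tnnt1* were above the median of the region. *Ramp3* was 603, 796, 1059 and 1110 in the intact PH, 359 to 892 at 14 days and 567 to 1636 at 4 months. In the PH 14-day replicate 5, where *Tcf7l2*, *Rora*, *Lef1* and *Tnnt1* were each second highest of the region, *Ramp3* was lowest and *Rgs16* second lowest. *Ramp3* was 419, 430, 504, 697 and 1073 in the intact POA, 363 to 1972 at 14 days and 511 to 1200 at 4 months. *Rgs16* was 2205, 2632, 2980 and 3219 in the intact PH, 1600 to 2640 at 14 days and 1473 to 3179 at 4 months. Its intact POA values were 1646, 1666, 2222, 2333 and 2718, with 1607 to 4642 at 14 days and 1751 to 2689 at 4 months. The highest *Ramp3* and *Rgs16* of the POA were both in the 14-day replicate 6.

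*Calb2* stayed within 1.77-fold in the PH and 1.45-fold in the POA. It was 9202, 9294, 9305 and 10123 in the intact PH, 8505 to 11703 at 14 days and 6600 to 9044 at 4 months. All 6 values at 4 months lay below all 4 intact ones. In the POA, *Calb2* was 7574, 7879, 8851, 9560 and 10782 in intact libraries, 7826 to 10991 at 14 days and 8860 to 10590 at 4 months, and the groups overlapped.

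**Figure D1:**
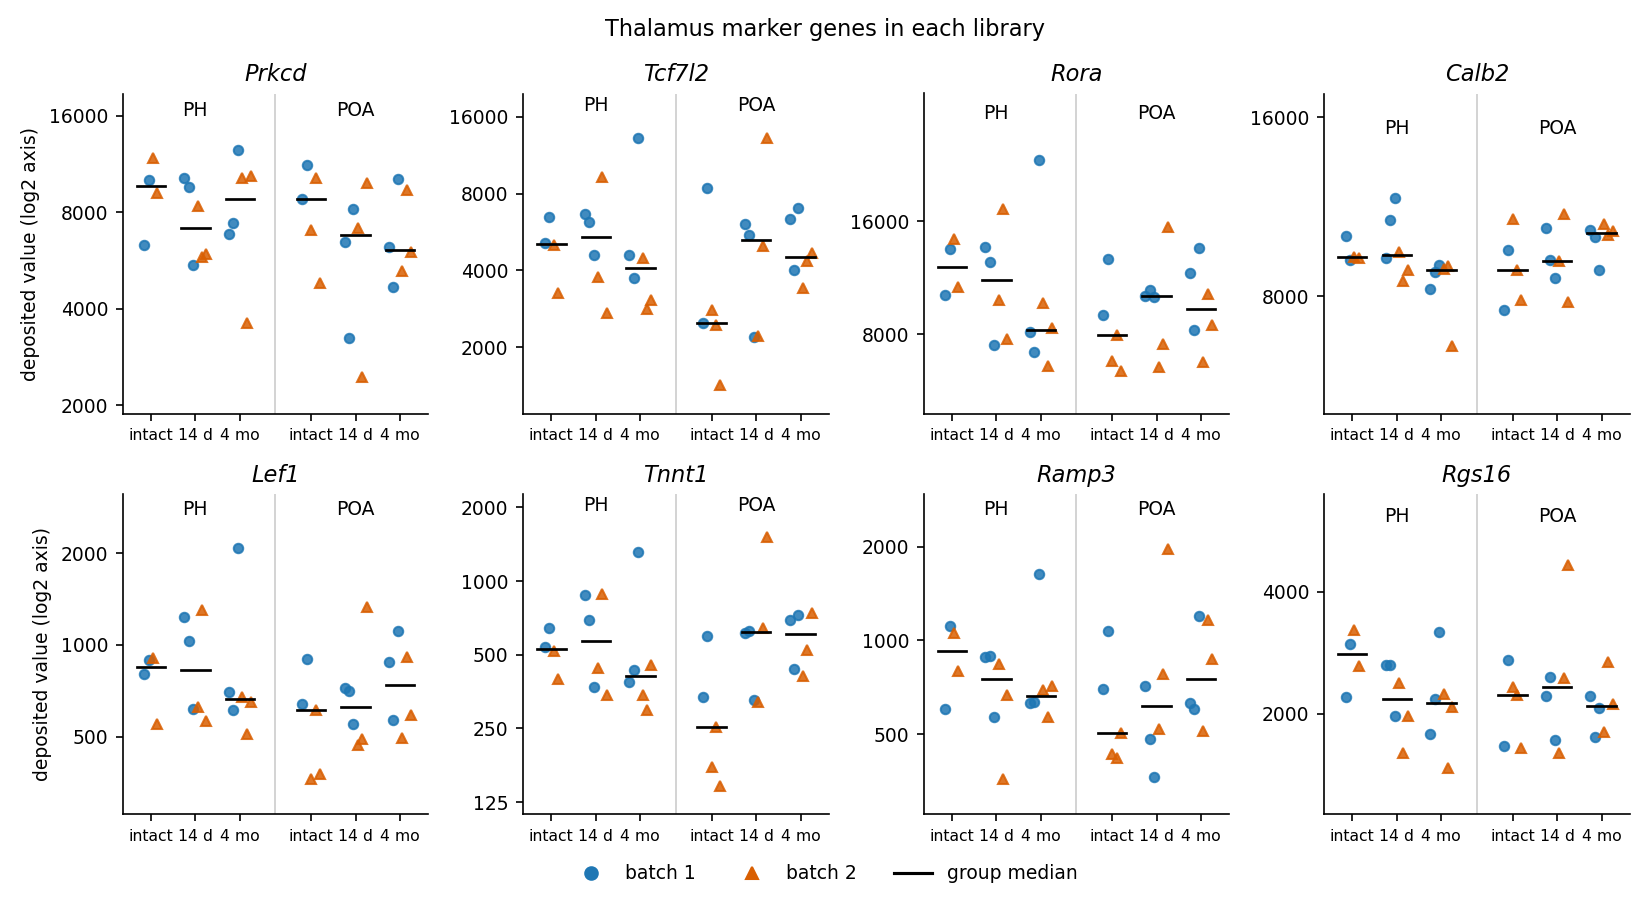
Deposited value (log2 axis) of the 8 genes in each library, by region and time, with batch 1 as circles, batch 2 as triangles and the group median as a bar. In the PH 4-month group 1 library lies far above the rest for *Tcf7l2*, *Rora*, *Lef1*, *Tnnt1* and *Ramp3*, while *Calb2* stays between 6600 and 11703 in all libraries.

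For 7 of the 8 genes this spread exceeded that of most genes. Among the 21998 genes tested in the PH, the SD of log2 values within groups had a median of 0.26, and among the 21366 in the POA it was 0.219. *Tcf7l2* had an SD of 0.67 in the first region and 0.81 in the second, more than 97.8% and 99.1% of the genes tested. Among genes whose mean level was within 0.5 log2 units of its own, it exceeded 99.6% and 99.7%. *Tnnt1* had 0.63 and 0.69, *Lef1* 0.59 and 0.53, *Ramp3* 0.51 and 0.67, *Prkcd* 0.50 and 0.61, and *Rora* 0.52 and 0.40. In its region, each of these exceeded at least 92.6% of the genes tested. *Rgs16*, at 0.31 and 0.39, exceeded 67.7% and 91.8%, whereas *Calb2*, at 0.16 in both regions, exceeded 13.3% and 25.5%.

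For most members little of this variance lay between the groups. In the PH, the share of the variance of log2 values between intact, 14-day and 4-month libraries was 1.53% for *Lef1*, 1.58% for *Tcf7l2* and 3.76% for *Tnnt1*, and it was highest for *Calb2*, at 32.1%. In the POA it ran from 5.54% for *Rgs16* to 40.0% for *Tnnt1*. The batches accounted for 22.0% of the variance of *Tcf7l2* in the PH and 26.1% of that of *Rora* in the POA, their highest shares in each region. With the floor component regressed out, the share between groups in the POA was 49.3% instead of 11.2% for *Lef1* and 37.7% instead of 6.68% for *Rora*. The share between batches was then 2.00% for *Tcf7l2* in the PH and 18.7% for *Rora* in the POA.

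To place each library, the log2 values were centered on their region mean and averaged over the 8 genes, which is called the thalamus score. It ran from -0.63 to 0.95 for PH libraries and from -0.76 to 1.02 for POA libraries. The PH 4-month replicate 3 (0.95) and replicate 5 (-0.63) were the ends of the PH, in the same group, and no 4-month PH library lay between 0.95 and -0.11. The POA 14-day replicate 6 (1.02) and intact replicate 5 (-0.76) were the ends of the POA. The mean score of the PH was 0.11 ± 0.23 (SD, n = 4) for the intact group, 0.01 ± 0.31 (n = 6) for the 14-day group and -0.08 ± 0.54 (n = 6) for the 4-month group. In the POA it was -0.22 ± 0.47 (n = 5), 0.06 ± 0.51 (n = 6) and 0.13 ± 0.30 (n = 6). With all libraries, the difference between group means was smaller than the SD within at least 1 of the groups compared in every pair. In the PH this held for 4 months against intact mice through the 4-month replicate 3 alone. The difference was -0.20 with this library and -0.40 without it, more than the SD of the intact group (0.23) and of the other 5 libraries at 4 months (0.20). The POA comparison of 4 months with intact mice rested on 1 library as well, the intact replicate 2. Its score was 0.51, against -0.76 to -0.19 in the other intact POA libraries. Without it the difference was 0.54, more than the SD of the intact (0.47) and 4-month (0.30) groups with all libraries. Without the PH 4-month replicate 3, the scores of the PH, recentered, spanned 1.02 instead of 1.58, and without the POA 14-day replicate 6 those of the POA spanned 1.27 instead of 1.77.

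**Figure D2:**
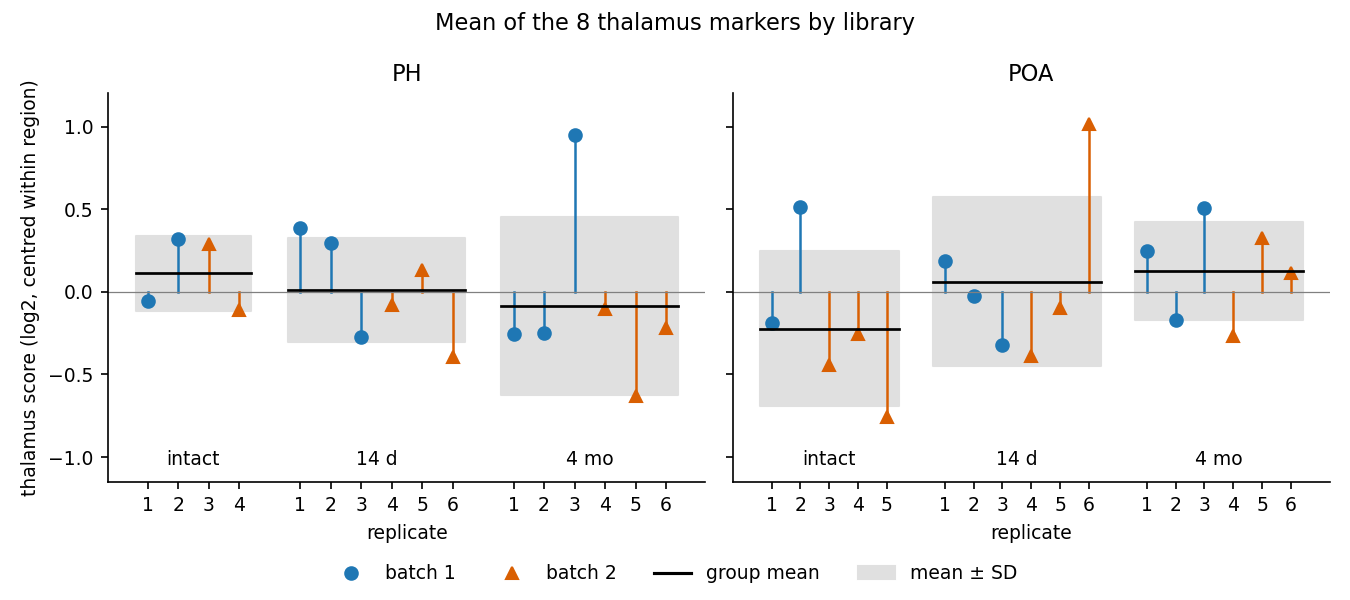
Thalamus score of each library (log2, centered within the region), by group and replicate number, with the group mean as a line and the mean ± SD as a gray band. Scores of 1 group span most of the range of the region, from -0.63 to 0.95 in the PH at 4 months and from -0.39 to 1.02 in the POA at 14 days.

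The score also moved with the floor component, which was read from entries without measurable expression. Whether thalamic signal entered that component was not tested. The correlation of score and component was -0.65 over the 16 PH libraries and -0.60 over the 17 POA libraries. Single members differed in this, from -0.84 for *Tcf7l2* to 0.01 for *Prkcd* in the PH and from -0.78 for *Prkcd* to 0.51 for *Calb2* in the POA. The PH 4-month replicate 3 had the lowest floor component of its region, 0.03, and the POA 14-day replicate 6 the lowest of the POA, -0.28. The part of this component in the members' spread was not tested.

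Across the libraries of a region, most members varied together, and they are described in 2 sets. After centering on group means, *Tcf7l2*, *Rora*, *Lef1* and *Tnnt1* correlated with each other at r = 0.91 to 0.97 in the PH (n = 16 libraries) and 0.80 to 0.95 in the POA (n = 17). *Prkcd*, *Ramp3* and *Rgs16* correlated at 0.74 to 0.92 with each other in the PH but at 0.30 to 0.74 in the POA, where *Prkcd* and *Rgs16* had the lowest value. Between the 2 sets, r was 0.38 to 0.61 in the PH and 0.28 to 0.83 in the POA. The second set was not apart in the POA, where the median r was 0.42 within it and 0.69 between the sets. How far the sets were apart in the PH depended on single libraries. Between the sets, r was 0.57 to 0.94 without the 14-day replicate 5, and -0.20 to 0.48 without the 2 libraries farthest from the median score, the 4-month replicates 3 and 5, while r within the sets was then 0.79 to 0.93. *Calb2* correlated with the other 7 genes at -0.20 to 0.16 in the PH and -0.41 to 0.06 in the POA. Of the 28 pairs, r was over 0.5 for 16 (PH) and 17 (POA), and for 9 and 13 without the 2 libraries farthest from the median score. These are descriptions across libraries, since the points share batches and the normalization.

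**Figure D3:**
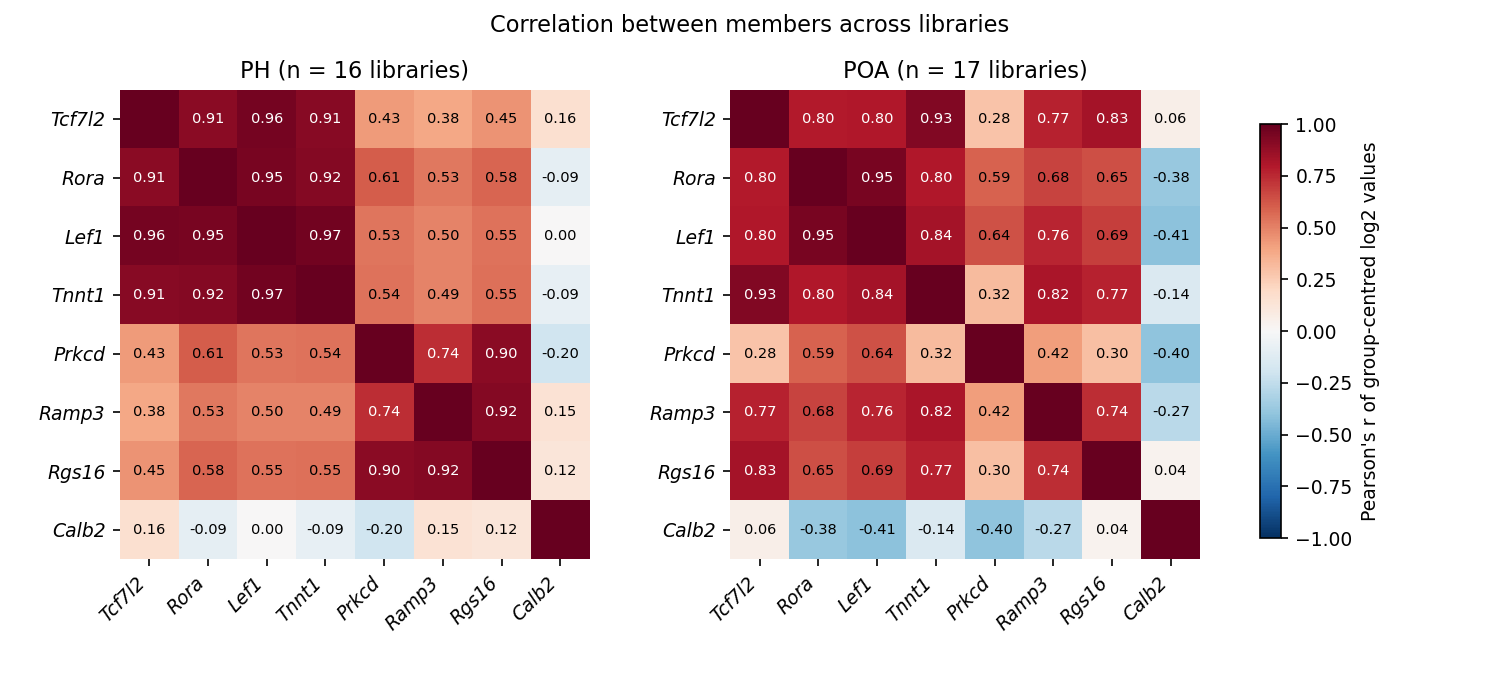
Pearson's r between log2 values of the 8 genes, centered on group means, over the 16 PH and 17 POA libraries. The block of *Tcf7l2*, *Rora*, *Lef1* and *Tnnt1* reaches 0.80 or more in both regions, and the row of *Calb2* stays at 0.16 or less.

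Other thalamic genes went with the score, though their list was chosen with earlier results of these data known, so it gives no independent support. The mean of 11 further thalamus genes correlated with it at r = 0.98 (PH) and 0.97 (POA), and at 0.94 and 0.93 without the 2 libraries farthest from the median score. Of these 11 genes, 5 in each region had r of at least 0.8, while among protein-coding genes it was 0.819% of 16110 (PH) and 0.515% of 15927 (POA). *Plekhg1* and *Synpo2*, both of this list, were among the 5 protein-coding genes closest to the score in both regions. They had 0.99 and 0.96 (PH) and 0.97 and 0.96 (POA). *Pdp1* (0.99) and *Endou* (0.96) were also among them in the PH, and *Cwh43* (0.97), *Gpr151* (0.96) and *Wnt9b* (0.94) in the POA. *Shox2*, a homeobox gene of caudal thalamic neurons, ran from 115 to 8595 between POA libraries, a 75.0-fold range, with r = 0.79. *Cacna1g*, a T-type calcium channel of relay neurons, did not follow the score closely (0.05 and 0.41), and *Zic1* had 0.45 and -0.46. At the other end were *Grcc10* (-0.95), *Psenen* (-0.91) and *Nenf* (-0.90) in the PH and *Endod1* (-0.93), *Abat* (-0.91) and *Slc25a4* (-0.90) in the POA. An r of at least 0.8 was found for 132 protein-coding genes (PH) and 82 (POA), and 28 were shared, 21.2% of the first and 34.1% of the second. An r of -0.8 or less was found for 58 (PH) and 135 (POA), so that more genes ran closely against the score than with it in the POA.

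Markers of other structures moved with the score as well. The mean of 7 habenula genes, which include the orphan receptor *Gpr151* and the transcription factor *Pou4f1*, had r = 0.79 (PH) and 0.83 (POA), and 0.63 and 0.71 without the 2 libraries farthest from the median score. *Pou4f1* ran from 57 to 761 between PH libraries and from 30 to 469 between POA libraries. In the POA, 6 of 7 genes of the posterior and mammillary hypothalamus also had r over 0.5, led by *Foxb1*, a mammillary transcription factor, at 0.91, and their mean had 0.76. In the PH, 3 of these 7 had r over 0.5 and their mean had 0.49, but 0.75 without the 2 farthest libraries. The oligodendrocyte mean had -0.72 in the POA, with 4 of 7 myelin genes under -0.5, and 0.02 in the PH, and -0.61 and -0.22 without those libraries. The microglial mean was lower where the score was higher in both regions, at -0.57 each, although none of its 6 genes was under -0.5. Without the 2 libraries farthest from the median score its r was -0.28 (PH) and -0.56 (POA). The mean of 5 neuronal genes had 0.49 and -0.51, and 0.58 and 0.16 without those libraries. The part of these cell types in the members' spread was not tested. List means of striatum (-0.45 and -0.01), cortex and hippocampus (-0.17 and 0.66), the arcuate and ventromedial hypothalamus (-0.02 and 0.61), astrocytes (-0.12 and 0.25), endothelial cells (0.03 and 0.36), choroid plexus (-0.19 and 0.21) and pituitary (0.04 and 0.09) are given for the PH and POA in this order. Several depended on the 2 libraries farthest from the median score. Without them, the list means of striatum had -0.019 and 0.22, cortex and hippocampus -0.068 and 0.65, the arcuate and ventromedial hypothalamus 0.34 and 0.66, astrocytes 0.0068 and -0.36, endothelial cells -0.38 and 0.20, choroid plexus -0.12 and -0.18 and pituitary -0.093 and 0.40.

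**Figure D4:**
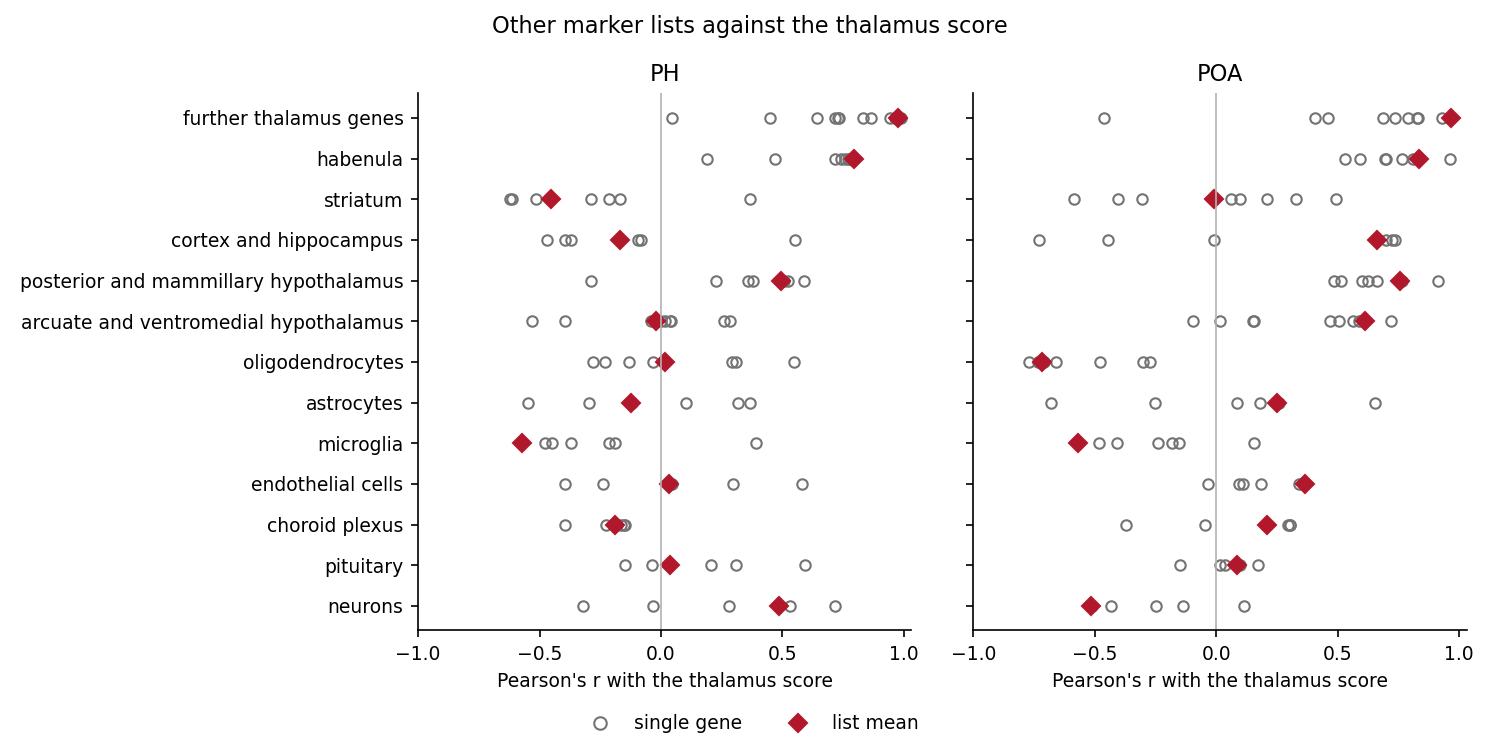
Pearson's r of single genes (open circles) and of list means (diamonds) with the thalamus score, after centering on group means, in the PH (16 libraries) and POA (17 libraries). Further thalamus genes (list means 0.98 and 0.97) and habenula genes (0.79 and 0.83) lie farthest to the right in both regions.

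Whether OVX changed the 8 genes was tested with limma on log2 values, with SV1 as a covariate and *P* values adjusted over all genes tested by the Benjamini-Hochberg method. Genes with an adjusted *P* under 0.05 count as called. In the PH at 14 days, 0 of 8 members were called, as were 0% of all genes tested. An unadjusted *P* under 0.05 was found for 463 of 16118 protein-coding genes and for 0 members. The log2 fold changes ran from -0.32 to 0.04, with 7 of 8 below 0, a median of -0.24 and a median of -0.002 over all genes. *Rgs16* had the smallest *P*, with a log2 fold change of -0.30 (SE 0.19, adjusted *P* = 1), followed by *Rora* at -0.32 (SE 0.28) and *Ramp3* at -0.29 (SE 0.32). *Rora* had -0.53 without the intact replicate 1 and -0.20 without the intact replicate 3. *Ramp3* had -0.45 without the intact replicate 1 and -0.16 without the intact replicate 2. Within batches 1 and 2, *Rgs16* had -0.098 and -0.57. The groups of no member were apart, and 0.573% of all genes had groups that did not overlap.

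In the PH at 4 months, 0 of 8 members were called by limma against intact mice, beside 0.0318% of all genes. An unadjusted *P* under 0.05 was found for 1066 of 16118 protein-coding genes and for 1 member. This was *Rgs16*, with a log2 fold change of -0.39 (SE 0.18, adjusted *P* = 0.814). *Calb2* followed at -0.18 (SE 0.10, adjusted *P* = 0.857), and it was the 1 member whose groups did not overlap, as was the case for 0.95% of all genes. *Rora* had -0.30 (SE 0.28, adjusted *P* = 0.919), and -0.54 without the 4-month replicate 3, -0.47 without the intact replicate 1 and -0.16 without the intact replicate 3. Within batches 1 and 2, *Rgs16* had -0.15 and -0.61 and *Calb2* -0.15 and -0.20, and *Calb2* had -0.11 without the 4-month replicate 6. The 8 values ran from -0.39 to 0.05 with a median of -0.20. Between 4 months and 14 days, 0 of 8 were called, beside 0.00909% of all genes. An unadjusted *P* under 0.05 was found for 641 of 16118 protein-coding genes and for 1 member. This was *Calb2*, at -0.21 (SE 0.09, adjusted *P* = 1). The members ran from -0.21 to 0.20, and their groups overlapped, whereas 0.236% of all genes had groups that did not.

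In the POA at 14 days, 0 of 8 members were called, beside 0.00468% of all genes. An unadjusted *P* under 0.05 was found for 1036 of 15935 protein-coding genes and for 1 member. *Tnnt1* had a log2 fold change of 1.13 (SE 0.43, 95% CI 0.21 to 2.05), with an adjusted *P* of 0.799. *Tcf7l2* had 0.68 (SE 0.51, adjusted *P* = 0.875), and *Prkcd* had -0.54 (SE 0.38, adjusted *P* = 0.864), the 1 member below 0. *Tcf7l2* had 0.24 without the 14-day replicate 6, 0.44 without the intact replicate 5 and 1.12 without the intact replicate 2, and -0.13 in batch 1 against 1.303 in batch 2. *Prkcd* had -0.26 without the 14-day replicate 5, and -0.83 and -0.34 in batches 1 and 2. The median of the 8 was 0.24, against -0.01 over all genes. At 4 months, 0 of 8 were called against intact mice, beside 0.0936% of all genes. At an unadjusted *P* under 0.05 there were 1441 of 15935 protein-coding genes and again 1 member, *Tnnt1*. Its log2 fold change was 1.10 (SE 0.43, 95% CI 0.18 to 2.03, adjusted *P* = 0.491). *Calb2* had 0.19 (SE 0.09, adjusted *P* = 0.602) and *Tcf7l2* 0.71 (SE 0.51, adjusted *P* = 0.744), and 7 of 8 were above 0. *Calb2* had 0.12 without the intact replicate 1, and *Tcf7l2* had 1.15 without the intact replicate 2 and 0.30 and 0.94 in batches 1 and 2. Within batches, the log2 fold change of *Tnnt1* was 0.16 in batch 1 and 1.87 in batch 2 at 14 days, and 0.43 and 1.54 at 4 months, and without the 14-day replicate 6 it was 0.74 at 14 days. Both times share the intact libraries, of which 4 of 5 were low in *Tnnt1* and *Tcf7l2*. Between 4 months and 14 days, 0 of 8 were called, beside 0.0281% of all genes, and the values ran from -0.17 to 0.26. At an unadjusted *P* under 0.05 there were 825 of 15935 protein-coding genes and 0 members. No member had groups apart in the POA, where 0.412%, 0.665% and 0.112% of all genes did at 14 days, at 4 months and between the times.

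The difference between the regions was tested in 1 fit of all 33 libraries. At 14 days, 0 of 8 members were called by limma, beside 0.00452% of the 22141 genes tested, and at 4 months 0 of 8, beside 0.00903%. At an unadjusted *P* under 0.05 there were 1 and 2 members. The response of *Tnnt1* in the POA minus that in the PH was 1.26 (SE 0.56, adjusted *P* = 0.999) at 14 days and 1.19 (SE 0.55, adjusted *P* = 1) at 4 months, and that of *Calb2* was 0.37 (SE 0.14, adjusted *P* = 1) at 4 months. The other members had intervals that included 0. That of *Tcf7l2* at 14 days reached from -0.39 to 2.15.

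Of the 11 further thalamus genes, 0 were called by limma in any of the 6 comparisons within regions, and at an unadjusted *P* under 0.05 there was 1 in the PH at 4 months and 1 in the POA at each time against intact mice. They followed the members in direction, with 0 of 11 above 0 at either time in the PH and 10 of 11 at both in the POA. Their median log2 fold change at 14 days and 4 months was -0.15 and -0.17 (PH) and 0.20 and 0.18 (POA). Their mean moved closely with the score across the same libraries (r = 0.98 and 0.97), so the 11 signs are not separate observations of a direction. Of the 7 habenula genes 0 were called, 0 had an unadjusted *P* under 0.05, and they did not share this direction, with a median at 4 months of 0.08 (PH) and -0.30 (POA).

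The score was then added to the fit as a second covariate, to see which genes called after OVX kept their call. The score also moved with the floor component and with other marker lists. Whether a call that changed did so through thalamic signal was not tested. None of the 8 members is among the genes called in these fits. At 4 months in the POA, 14 protein-coding genes were called against intact mice without the score and 34 with it, of which 11 were called in both. Those 11 included, named after their values were seen, *C4b* and *C1qa* of the complement cascade, at log2 fold changes of 0.98 (SE 0.13) and 0.44 (SE 0.08) without the score and 0.93 and 0.48 with it. The 23 genes gained included *C1qc*, another complement chain, at 0.33 (SE 0.07, adjusted *P* = 0.111) without and 0.39 (SE 0.06, adjusted *P* = 0.0134) with the score, and *Ctss*, the lysosomal protease cathepsin S of microglia, at 0.34 (SE 0.07, adjusted *P* = 0.0937) and 0.38 (SE 0.07, adjusted *P* = 0.0293). *Cnksr3* and *Pycr1*, which had r = 0.86 and 0.88 with the score, went from -0.52 to -0.67 and from -0.41 to -0.65, and both were called only with the score. The 3 genes lost were *Npas4*, *Polq* and *Zc3hav1*, named because they were lost, with adjusted *P* of 0.0549, 0.054 and 0.0554 with the score. The count of 14 rests on the covariate and on single libraries. With the score in place of SV1 1 gene was called, and 0 of the 14 were kept. With no covariate, and with the replicate number as a block, 1 was called as well, while batch in place of SV1 gave 15 and both together gave 13. In the POA, SV1 separated the batches, so fits with the score in place of SV1 or with no covariate had no term for batch. It fell to between 3 and 9 when any 1 library was left out other than the intact replicate 4, the 4-month replicate 5 and the 14-day replicate 6, and it rose to 28 without the last of these, the library with the highest score.

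Elsewhere the counts were smaller. In the PH at 4 months, 4 genes were called without the score and 7 with it, and all 4 were among the 7. *C4b* had 1.19 (SE 0.12, adjusted *P* = 0.000266) without and 1.22 (SE 0.12, adjusted *P* = 0.000343) with the score. Those gained were *Serpina3n*, a serine protease inhibitor of reactive astrocytes, *Cpne7* and *Pcdhb14*. *Serpina3n* went from 0.70 (SE 0.13, adjusted *P* = 0.0841) to 0.63 (SE 0.11, adjusted *P* = 0.0358). Leaving out libraries gave 3 to 11 genes, with 7 or 8 without the 4-month replicate 1, 2 or 6 and 11 without the 4-month replicate 3, the library with the highest score of the PH. Between 4 months and 14 days in the POA, 5 genes became 11 and all 5 were kept. They included the immediate early genes *Btg2* and *Npas4*, at 0.95 and 0.91 without and 0.95 and 0.90 with the score. In the PH, 0 protein-coding genes were called at 14 days with or without the score (463 had an unadjusted *P* under 0.05 without it) and 1, *C4b*, between the times in both fits. *Gm28040* was the 1 gene called in the POA at 14 days, in both fits.

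The genes called without the score were then compared with those that followed it. The r of the 14 genes called at 4 months in the POA with the score ran from -0.39 to 0.55 with a median of -0.01, and 1 had an absolute r of 0.5 or more. In the PH at 4 months, the 4 genes had r from -0.57 to 0.48, and 2 had an absolute r of 0.5 or more. Of all protein-coding genes, 9.04% (PH) and 7.05% (POA) had r over 0.5, and 10.1% and 11.6% had r under -0.5. Across all protein-coding genes other than the members, the median SE of the POA comparison of 4 months with 14 days fell from 0.0836 to 0.0752 with the score and was smaller for 84.9% of genes. For the POA comparison of 4 months with intact mice it was 0.0886 without and 0.0842 with the score, and 51.6% of genes had a smaller SE. In the PH fewer genes gained in precision against intact mice, with a smaller SE for 41.8% at 14 days and 45.7% at 4 months, and 65.4% between the times. The floor component as a covariate raised the count as well, but it correlated with the score, at r = -0.65 (PH) and -0.60 (POA). With the floor component added in place of the score, 60 protein-coding genes of the POA and 7 of the PH were called at 4 months.

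**Figure D5:**
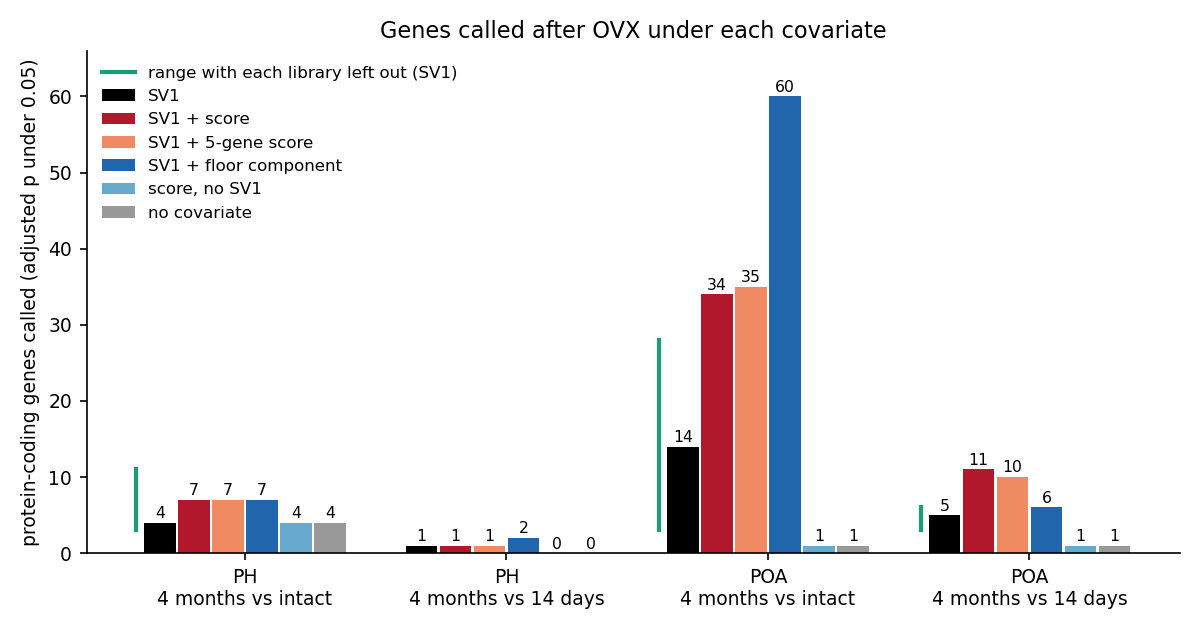
Number of protein-coding genes called by limma in 4 comparisons under each choice of covariate (bars), with the range over fits that leave out 1 library (green line, SV1 alone). In the POA at 4 months the count was 14 with SV1, 34 with the score added and 60 with the floor component added, and leaving out single libraries gave 3 to 28.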

How the data were processed

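Libraries were assigned to a region and a time by their labels. The authors pseudoaligned reads to the transcriptome with kallisto, summarized them per gene and normalized them with DESeq2 (mm39, per the labels), and the deposited table holds normalized signal on a linear scale, whose further steps are not given in the sources used here. Neither counts nor depth can be recovered from it, so counting error is not covered. Entries with no gene name (1259 of 42824) were dropped. Gene positions were taken from GENCODE on GRCm39.

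Log2 values were used without a pseudocount. Genes that reached 2 times the floor of 22.1 in at least 4 PH or 5 POA libraries were tested with limma 3.58.1 in R 4.3.3 (trend and robust variance), on the 3 groups of a region with SV1, which was estimated by an iteratively reweighted surrogate variable analysis rewritten in base R and tested on simulated data. The difference between regions was an interaction in 1 fit. Correlations used log2 values centered on group means, and r of 0.8 set the counts of genes that follow the score. Alternatives were batch in place of or beside SV1, no covariate, a block for the replicate number, fits of 2 groups, fits within 1 batch, leaving out each library, no filter, a pseudocount of 50, a score of 5 genes (*Prkcd*, *Tcf7l2*, *Lef1*, *Tnnt1* and *Ramp3*) and other ways of scoring and centering. Adding the floor component, and leaving PH 14-day replicate 5 out of the correlations, were chosen after seeing the data.

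The members, lists and tests were chosen with earlier results of these data known. Named genes are the members, the 5 protein-coding genes with the highest and the 3 with the lowest r with the score in each region, up to 10 genes per comparison whose call changed with the score, and examples from the lists. A gene that this rule names is not reported here. Values are given for the 3 members with the smallest *P* in a comparison.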

Additional observations from a re-analysis of the deposited data

Results flagged for a closer look

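The values of each member and the score were examined for single libraries far from the others of their group, which chance gives in about 1 in 20 groups. Of 54 groups of values, 9 held such a library. The groups share libraries, most members varied together and the score is their mean, so this count cannot be set against that rate. The PH 4-month replicate 3 accounted for 6 of them, with *Tcf7l2* at 13184 (the next highest of its group was 4577), *Rora* at 23360 (next 9708), *Lef1* at 2085 (next 702), *Tnnt1* at 1314 (next 456), *Ramp3* at 1636 (next 713) and a thalamus score of 0.95 (next -0.11). The other 3 were values of *Calb2*. It was 10123 in the PH intact replicate 1, above 9305 in the nearest library, 6600 in the PH 4-month replicate 6, below 8218, and 8860 in the POA 4-month replicate 3, below 10054.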

How the results depend on the processing

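No member was called in any of the 8 comparisons under any alternative. The smallest adjusted *P* of a member was 0.0883, for *Tnnt1* in the POA at 4 months with SV1 and batch together, then 0.102, for *Lef1* there with the floor component added, and 0.269 over all fits that leave out 1 library. Of 735 recomputed fold changes of the members named with values, 12 changed sign, and of 1225 of the others 119 did. Signs changed for *Tcf7l2* and *Lef1* in the PH between 4 months and 14 days with batch in place of SV1 or no covariate (-0.18 and -0.14), in batch 2 alone (-0.44 and -0.34) and, for *Lef1*, with the floor component added (-0.018). With libraries left out, they ran from -0.12 to 0.29 and from -0.18 to 0.24, and that of *Rgs16* in the POA between these times from -0.31 to 0.017. In batch 1 alone, *Tcf7l2* had -0.13 in the POA at 14 days and -0.13 in the difference between the regions at 14 days.

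The range of the score was 1.02 to 1.58 in the PH and 1.27 to 1.77 in the POA with libraries left out. Member pairs with r over 0.5 in the PH fell to 9 without the 2 libraries farthest from the median score. Genes with r of at least 0.8 with the score were 230 (PH) and 280 (POA) when centered within groups and batches, 61 and 47 without the 2 farthest libraries, and 263 in the PH without the 14-day replicate 5.

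Counts of protein-coding genes called moved most. In the PH at 4 months there were 7 with the score, the 5-gene score or the floor component, and 3 to 11 with libraries left out. In the PH between the times there were 2 with the floor component and 0 with batch, the score or nothing in place of SV1. In the PH at 14 days, 1 was called without the 4-month replicate 5 (range 0 to 1). In the POA at 14 days there were 2 with SV1 and batch or the floor component, 0 with no covariate or the score in place of SV1, and 0 to 1 with libraries left out. In the POA at 4 months there were 34 with the score, 35 with the 5-gene score, 60 with the floor component, 1 with no covariate and 1 with the score in place of SV1, and 3 to 28 with libraries left out. Between the times in the POA, these were 11, 10 and, with no covariate or the score in place of SV1, 1, and 3 to 6 with libraries left out. The causes were not tested.

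Libraries that share a replicate number were not treated as pairs, since not every same-numbered pair had deviations correlated over 0.1. For PH libraries it was 9 of 14 such pairs (median r 0.154), against 20 of 70 other pairs (-0.0508). For POA libraries it was 14 of 16 (0.255), against 32 of 80 (-0.155). Most same-numbered libraries share a batch. Within a batch, same-numbered and other pairs had medians of 0.193 and 0.146 (PH) and of 0.274 and 0.275 (POA). The highest correlation was with its own number for 6 of 16 libraries (PH) and 5 of 17 (POA). With the replicate number as a block, 0 members were called, and the counts of protein-coding genes were 1 in the PH at 14 days, 5 at 4 months and 1 between the times, and 0, 1 and 6 in the POA.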
